A study of Caenorhabditis elegans with 7 samples.

Results

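The 88 genes described here had a higher ratio at 2 and 4 h of heating than before it, and their mean at 10 and 12 h lay within 0.7 log2 units of that level. They are 88 of the 5315 named genes measured on all 7 arrays of the series, or 1.66%. They were chosen by measured values, on the 0, 2, 4, 10 and 12 h arrays. The mean of 2 and 4 h had to exceed 0 h by at least 1 log2 unit (early change). The mean of 10 and 12 h had to lie within 0.7 log2 units of the mean of 2 and 4 h (late change). These limits let a gene lose most of a small rise. Thus iscu-1 had an early change of 1.04 and a late change of -0.64, and Y73F8A.15 had 1.04 and -0.65. The late change was below 0 in 54 of the 88 genes and above 0 in 34. Of 162 named genes that met the first condition, 94 met both, 36 were lower late by 0.7 or more and 32 were higher late by 0.7 or more. The choice leaves out 14 listed genes, 6 of which met both conditions. It also leaves out probes without a gene name. Of 8054 such probes measured on all 7 arrays, 149 (1.85%) met both conditions, against 1.77% of named genes.

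Adult Caenorhabditis elegans of strain CF512 were raised at 25 °C, where the strain is sterile, and then held at 30 °C. As background, CF512 carries temperature-sensitive mutations in fer-15 and fem-1 and makes no functional sperm at the raised temperature, and every array carries this genotype, the unheated one included. The groups are the unheated adults (0 h) and adults after 2, 4, 6, 8, 10 and 12 h at 30 °C. There is 1 two-colour array per time, with the same reference RNA, HS1, on each. The series has no array of adults kept at 25 °C for the later times. Heating therefore cannot be told apart from elapsed time, ageing or handling, and "heated" below means the arrays at 30 °C. Total RNA came from whole animals, and the labels used here do not give the number of animals, their age in days or the makeup of HS1.

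In worms, as in other animals, a rise in temperature activates the heat shock factor HSF-1, which drives genes for chaperones that hold or refold damaged proteins. Many such transcripts peak early and then fall while heat persists. Other transcripts settle at a new level, and a time course can tell a passing rise from a lasting one.

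Values are log2 ratios of worm RNA to HS1 with each array's median set to 0, so they give a level relative to the reference and no absolute amount. Log base 2 is read from the range of the file, and no source used here says which way the ratio runs. The likely direction rests on the heat-inducible HSP70 genes F44E5.4 and F44E5.5, both at -4.98 at 0 h, the lower limit of the file, and at 0.91 and 0.83 at 2 h. With the sign turned, the 88 genes would be lower with heating. Neither HSP70 gene is among the 88, since both had lower ratios after 4 h, F44E5.4 down to -1.19 and F44E5.5 down to -1.02 at 10 h. No time has a replicate, so errors below are the spread of single arrays.

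All 88 genes stood below the array median at 0 h, from -4.58 (F57A8.1) to -0.28 (iscu-1) with a median of -1.03. Of the 88, 78 lay in the lowest 10% of named genes on that array, below -0.62. The heated arrays put them close to the array median. The median ratio of the 88 was 0.18 at 2 h, 0.26 at 4 h, 0.18 at 6 h, 0.20 at 8 h, 0.14 at 10 h and 0.17 at 12 h. The mean over the 6 heated arrays lay within 0.5 of 0 for 79 genes, above 0 for 68, and reached at most 0.62. The 0 h array and its difference from the early arrays chose the genes, so these levels are a description. Every change from baseline rests on the same single 0 h array, whose spread over named genes (SD 0.61) was wider than that of any heated array (0.41 to 0.54).

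**Figure D1:**
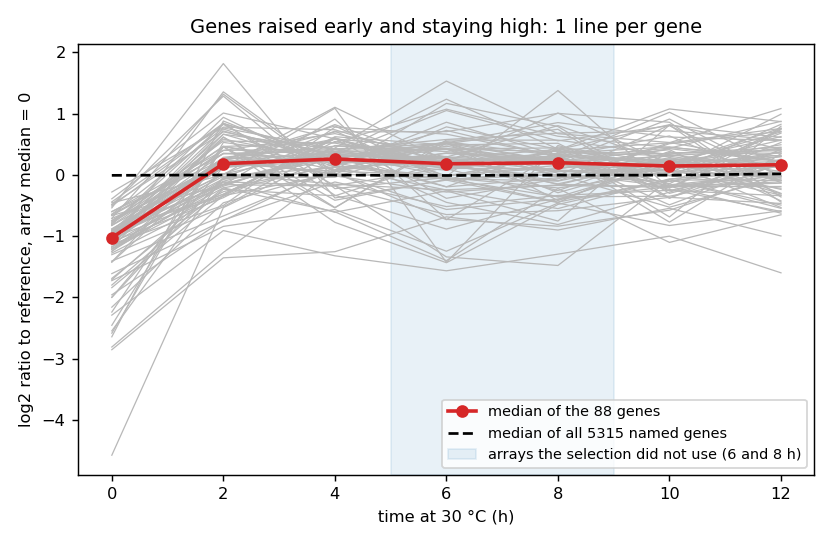
Log2 ratio to the reference (y axis, array median at 0) against hours at 30 °C (x axis) for each of the 88 genes (grey), their median (red) and the median of all 5315 named genes (dashed). The red median goes from -1.03 at 0 h to 0.18 at 2 h and stays between 0.14 and 0.26 afterwards; the shaded 6 and 8 h arrays took no part in the choice.

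The 6 and 8 h arrays took no part in the choice. Their mean exceeded 0 h by a median of 1.15 log2 units over the 88 genes, against 0.04 over all 13369 features measured on every array. By comparison the median change at 2 and 4 h was 1.19. The mean of 6 and 8 h was at least 1 log2 unit above 0 h for 51 of the 88 and at least 2 above it for 15. It was less than 0.5 above 0 h for 13, among them 3 where it was below 0 h. Over all features, 4.36% were at least 1 log2 unit above. This difference shares the 0 h array with the choice and is given without a test. Against the other heated arrays, the mean of 6 and 8 h lay within 0.5 of the mean of 2, 4, 10 and 12 h for 68 of the 88 genes (77.3%), with a median difference of -0.06. Over all features 90.6% lay that close, so the 88 genes were not more even across the heated arrays than other features.

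Of the 88 genes, 85 had a higher ratio on each of the 6 heated arrays than at 0 h. Over all features 25.8% did so, but for the 88 the choice had already fixed most of this. The gap between the lowest heated array and 0 h was at least 0.5 log2 units for 63 genes and at least 1 for 21. D2062.5, Y73F8A.15 and ZC328.5 were the exceptions, and all 3 go against the description as staying high. They are among the 13 genes whose mean of 6 and 8 h was less than 0.5 above 0 h, and the description is weak for the others of these too. D2062.5 stood at -0.46 at 0 h, 0 at 2 h, 1.09 at 4 h, -1.43 at 6 h, 0.48 at 8 h, -0.01 at 10 h and 0.68 at 12 h. Its 6 h array alone was below baseline. Y73F8A.15 stood at -0.66 at 0 h, -0.17 at 2 h, 0.91 at 4 h, -0.73 at 6 h, -0.84 at 8 h, -0.58 at 10 h and 0.02 at 12 h. ZC328.5 stood at -1.25 at 0 h, -0.11 at 2 h, -0.18 at 4 h, -1.34 at 6 h, -1.48 at 8 h, -0.08 at 10 h and -0.49 at 12 h. Both of the latter were below baseline at 6 and 8 h and above it on the other heated arrays.

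**Figure D2:**
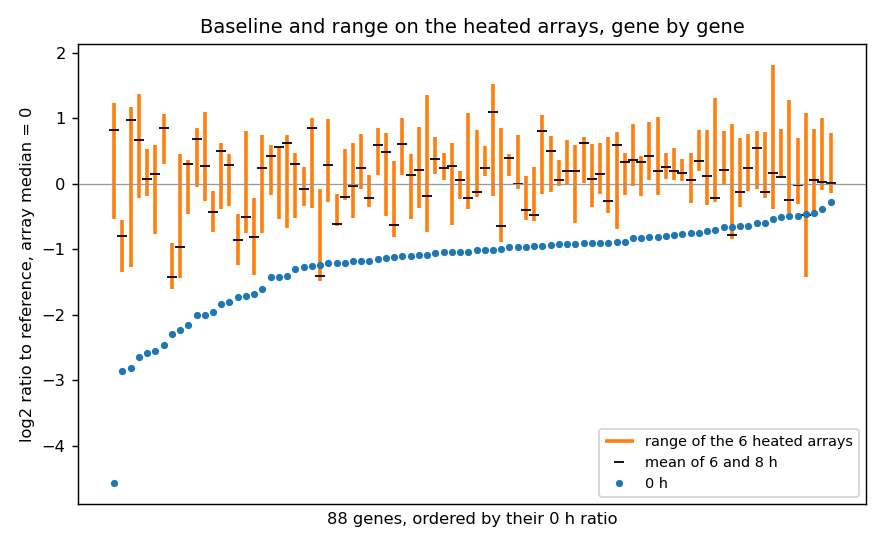
For each of the 88 genes (x axis, ordered by the 0 h ratio), the 0 h log2 ratio (blue point), the range of the 6 heated arrays (orange bar) and the mean of 6 and 8 h (black dash), with the array median at 0. The blue point lies under the whole bar for 85 genes and inside it for 3.

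The largest change belonged to F57A8.1. Its ratio was -4.58 at 0 h, -0.54 at 2 h, 0.35 at 4 h, 1.24 at 6 h, 0.42 at 8 h, 0.14 at 10 h and 0.30 at 12 h. The lowest heated array was thus 4.04 log2 units above baseline, and the ratio was highest at 6 h. The mean of the heated arrays (0.32, SD 0.57 over 6 arrays) exceeded the single 0 h value by 4.90. That 0 h value lies near the lower limit of the file and has no measure of signal over background, so the size of the change is uncertain. Y17D7C.2 was the steadiest of the genes with large changes. It stood at -2.46 at 0 h, 0.46 at 2 h, 0.53 at 4 h, 1.07 at 6 h, 0.63 at 8 h, 0.45 at 10 h and 0.31 at 12 h, and its heated mean (SD 0.27) exceeded 0 h by 3.03. T28F4.4 stood at -2.59 at 0 h, 0.53 at 2 h, 0.30 at 4 h, 0.30 at 6 h, -0.16 at 8 h, -0.19 at 10 h and -0.14 at 12 h. It was highest on the first heated array and lower on each of the last 3 than on each of the first 3, and its heated mean (SD 0.31) exceeded 0 h by 2.69.

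C06B3.7 reached its level more slowly, from -2.16 at 0 h to -0.46 at 2 h and 0.05 at 4 h. It then stood at 0.36 at 6 h, 0.24 at 8 h, 0.26 at 10 h and 0.22 at 12 h. C29G2.2, a pseudogene in RefSeq, went from -2.81 at 0 h to -1.27 at 2 h, 0.08 at 4 h, 1.17 at 6 h, 0.79 at 8 h, -0.30 at 10 h and 0.17 at 12 h. Its heated arrays spread widely (SD 0.855), with a mean 2.92 above 0 h. C18D4.4 moved up and down on the heated arrays, with 0.88 at 2 h, 0.15 at 4 h, -0.03 at 6 h, 1.38 at 8 h, -0.22 at 10 h and 0.74 at 12 h after -2.65 at 0 h. The pseudogene Y53F4B.8 had -2.55 at 0 h and a heated range from -0.77 at 10 h to 0.60 at 4 h. For Y53F4B.26 the values were -1.998 at 0 h and -0.26 at 10 h to 1.10 at 4 h. The heated means of these last 3 genes exceeded 0 h by 3.13, 2.62 and 2.28.

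C38C3.6 had -1.25 at 0 h, then 0.26 at 2 h, 0.70 at 4 h, 0.71 at 6 h, 1.01 at 8 h, 0.86 at 10 h and -0.36 at 12 h. Its last array was the lowest of the heated ones. F54E2.5 had -1.01 at 0 h, then -0.19 at 2 h, 0.44 at 4 h, 1.53 at 6 h, 0.67 at 8 h, 0.53 at 10 h and 0.21 at 12 h, with its highest value on an array outside the choice. Their heated means exceeded 0 h by 1.78 and 1.54.

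**Figure D3:**
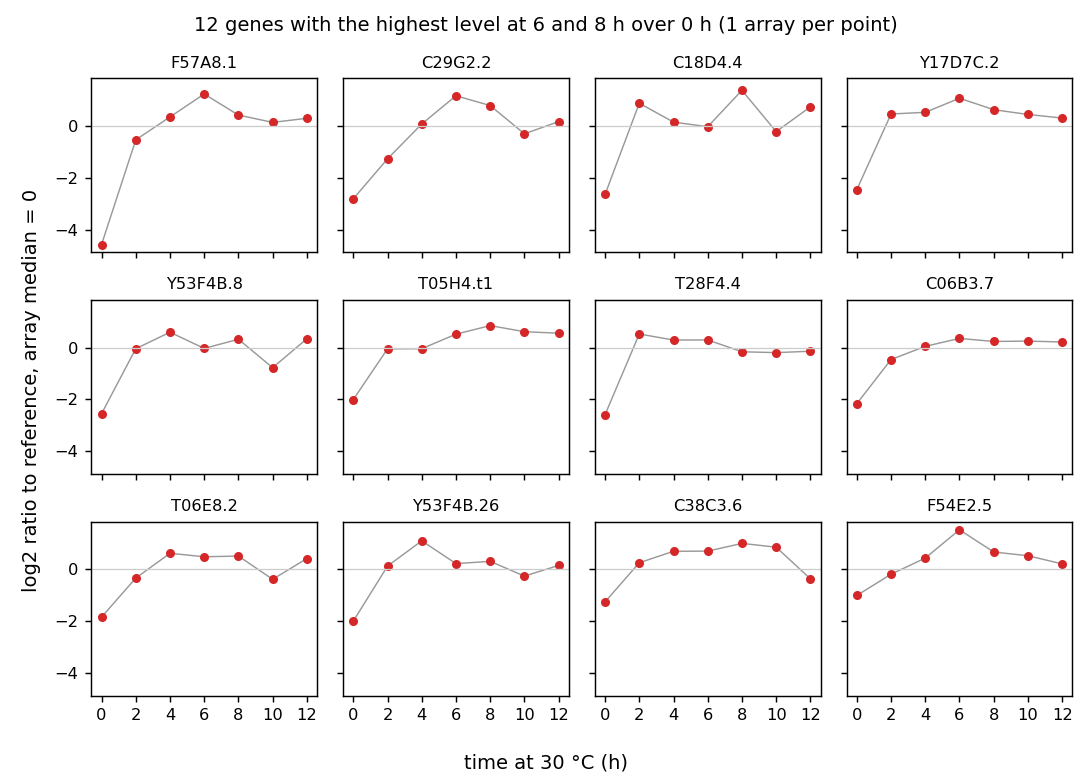
Log2 ratio to the reference (y axis, array median at 0) against hours at 30 °C (x axis) for the 12 genes with the highest mean of 6 and 8 h over 0 h, 1 point per array. Every heated point lies above the 0 h point in all 12 panels, and F57A8.1 starts lowest, at -4.58.

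In the fit of the heated arrays against the single 0 h array, 19 of the 88 genes lay past the threshold with limma (adjusted p under 0.05 over 13369 features), where 0.681% of all features lay past it as higher. Of its 7 arrays, 5 chose the genes, which fixed the direction and much of the size, so neither the count nor the call of any gene is support, and no p is given for a gene. The count moved with single arrays: without the 6 h array it was 6 of the 88 and 51 of all features, without the 8 h array 6 and 46, and without the 12 h array 11 and 73, against 19 and 91 with all arrays. The median change of the 88 was 1.17, against 0.05 over all features. The heated mean exceeded 0 h by 2.41 in T05H4.t1 (SD 0.37), 2.27 in C06B3.7 (SD 0.30) and 1.92 in M01H9.3 (SD 0.33). The other genes named in this and the next paragraph were chosen after their values were seen. C35D10.12 had the least spread of the 88 on the heated arrays (SD 0.12): it stood at -0.97 at 0 h, 0.12 at 2 h, 0.34 at 4 h, 0.42 at 6 h, 0.38 at 8 h, 0.34 at 10 h and 0.45 at 12 h. Its 6 heated values all lay at least 1.08 above baseline. In K11H12.8 the heated mean exceeded 0 h by 1.27 (SD 0.17), in F49F1.11 by 1.33 (SD 0.17), and in the pseudogene H06O01.4 by 1.15 (SD 0.15).

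In ZK757.2 and W03F11.4 the heated level still lay under the array median. ZK757.2 stood at -2.86 at 0 h, -1.36 at 2 h, -1.26 at 4 h, -0.69 at 6 h, -0.90 at 8 h, -0.55 at 10 h and -0.998 at 12 h. W03F11.4 stood at -1.96 at 0 h and between -0.74 (2 h) and -0.12 (4 h) afterwards. In all, 20 of the 88 had a heated mean at or below 0, the lowest being R10A10.1 (-1.28, after -2.29 at 0 h).

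The 2 h and 4 h arrays did not always show the higher level alike. At least 1 log2 unit above baseline was reached on both by 44 genes, at 2 h but not 4 h by 18 and at 4 h but not 2 h by 26. The choice forces each gene to reach it on at least 1 of these arrays. With 1 array per time, a difference in timing between genes was not tested. The highest ratio was found on the 2 h array in 27 genes, on the 4 h array in 20, on the 6 h array in 10, on the 8 h array in 8, on the 10 h array in 12 and on the 12 h array in 11. This count includes arrays used by the choice. F16G10.13 differed most between the early arrays, with 1.82 at 2 h and -0.38 at 4 h after -0.54 at 0 h. It later stood at -0.09 at 6 h, 0.41 at 8 h, 1.08 at 10 h and 0.87 at 12 h, so its early change rested on the 2 h array alone. Y51B9A.8, ZK218.8 and ZC239.6 were also lower at 4 than at 2 h, with differences of -1.51, -1.34 and -1.32. C29G2.2 and the tRNA gene R04D3.t5 were higher at 4 than at 2 h, by 1.35 and 1.28. All of these except C29G2.2 were named after their values were seen.

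The choice used only the means of 2 and 4 h and of 10 and 12 h, so it did not use how the later array of each pair of neighbouring times differed from the earlier one. With limma, 0 of the 88 genes and 0% of 13478 features passed for a step shared by the pairs 2 and 4 h, 6 and 8 h, and 10 and 12 h. The lowest adjusted p was 0.726. At an unadjusted p under 0.05 there were 12 of the 88 (13.6%), 8 upward and 4 downward, against 6.81% of all features. The median step of the 88 was -0.01. D2062.5 had the largest step (1.23, SE 0.26), with the later array higher in each pair. The fit has 1 array per time and few degrees of freedom, and on simulated data it recovered 0 of 100 true steps of 1 log2 unit. A p above the threshold therefore does not show that the level was flat.

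From 6 to 8 h alone, the ratio was up by at least 1 log2 unit in 4 of the 88 genes and down by as much in 0. Over all features 2.18% were higher and 1.4% lower by that amount. There is 1 array at each time and no test. The difference was under 0.5 in size for 73 of the 88 (83.0%) and for 79.3% of all features. D2062.5 (1.91), C18D4.4 (1.41) and ZK1248.4 (1.18) had the highest differences, followed by ZC239.6 (1.10). F16B12.1 (-0.94), F54E2.5 (-0.86) and F57A8.1 (-0.81) had the lowest. ZK1248.4 stood at -1.69 at 0 h, -0.21 at 2 h, -0.60 at 4 h, -1.40 at 6 h, -0.22 at 8 h, -1.10 at 10 h and -0.65 at 12 h, and so came close to baseline at 6 h. F16B12.1 stood at -0.44 at 0 h and at 0.84, 0.30, 0.52, -0.42, 0.23 and -0.31 in the order of the heated times, and was all but back at baseline at 8 h.

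**Figure D4:**
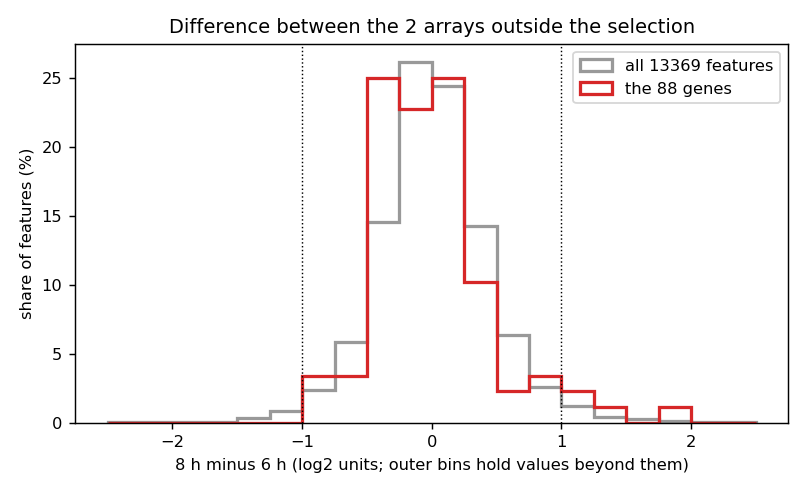
Share of features in percent (y axis) by the 8 h ratio minus the 6 h ratio in log2 units (x axis), for the 88 genes (red) and all 13369 features (grey), with dotted lines at -1 and 1. Of the 88, 4 lie at or beyond 1 and 0 at or beyond -1.

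Of the set, 7 genes carry a gene-class name. pgm-1, for a phosphoglucomutase that interconverts glucose phosphates on the way to and from glycogen, stood at -0.83 at 0 h. It stood at 0.40 at 2 h, 0.43 at 4 h, 0.41 at 6 h, 0.25 at 8 h, -0.18 at 10 h and -0.12 at 12 h, a high level up to 8 h and a lower one at the last 2 times. Its heated mean exceeded 0 h by 1.02 (SD 0.28). iscu-1, for the scaffold on which mitochondria assemble iron-sulfur clusters, stood at -0.28 at 0 h, 0.78 at 2 h, 0.74 at 4 h, 0.19 at 6 h, -0.15 at 8 h, 0.24 at 10 h and -0.01 at 12 h. It was high at 2 and 4 h and only 0.13 above baseline at 8 h. Its heated mean exceeded 0 h by 0.58 (SD 0.38).

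dus-2, for a dihydrouridine synthase that modifies tRNA, stood at -1.21 at 0 h, 0.02 at 2 h, -0.15 at 4 h, -0.24 at 6 h, -0.17 at 8 h, -0.20 at 10 h and 0.53 at 12 h. It held an even level up to 10 h (heated mean 1.17 above 0 h, SD 0.29). gmap-3 stood at -0.95 at 0 h, -0.15 at 2 h, 0.32 at 4 h, 1.05 at 6 h, 0.56 at 8 h, 0.80 at 10 h and -0.03 at 12 h, with the highest values in the middle of the course. phac-1 ranged from -0.60 at 12 h to 0.59 at 4 h after -0.91 at 0 h, and scpr-1 from -0.20 at 6 h to 0.83 at 12 h after -1.02. gtnt-43 stood at -2.24 at 0 h, 0.46 at 2 h, -0.78 at 4 h, -1.44 at 6 h, -0.48 at 8 h, -0.08 at 10 h and -0.55 at 12 h. Even at 6 h, its lowest heated array, it was 0.81 above baseline.

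The other 81 genes have only a sequence name here, and their functions are not given in the sources used. By RefSeq type the 88 comprise 78 protein-coding genes, 7 pseudogenes, 1 tRNA gene, 1 tRNA pseudogene and 1 non-coding RNA gene. The tRNA pseudogene T05H4.t1 stood at -2.002 at 0 h, -0.04 at 2 h, -0.04 at 4 h, 0.52 at 6 h, 0.85 at 8 h, 0.62 at 10 h and 0.56 at 12 h. It overlaps the coding gene urb-1, whose early change was 0.45 and whose change at 6 and 8 h was 0.39, against 1.96 and 2.69 for T05H4.t1. The non-coding gene VT23B5.1 lies over the coding gene wdfy-3, which was not measured on all arrays under a named probe. In total 21 of the 88 overlap a coding gene or pseudogene in the RefSeq table, which gives no strand. Probe sequences were not used, so a probe's signal cannot be assigned to one of 2 overlapping genes.

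Of the 88, 4 form neighbouring pairs in the order of coding genes and pseudogenes. F57A8.1 lies next to T06E8.2, which stood at -1.84 at 0 h, -0.34 at 2 h, 0.62 at 4 h, 0.49 at 6 h, 0.52 at 8 h, -0.38 at 10 h and 0.42 at 12 h. Both were higher at 4 h than at 2 h, and from 4 h on both were lowest at 10 h. The heated mean of T06E8.2 exceeded 0 h by 2.06 (SD 0.45). T28F4.4 lies next to T28F4.3, which stood at -1.18 at 0 h, -0.21 at 2 h, 0.14 at 4 h, -0.07 at 6 h, -0.36 at 8 h, -0.35 at 10 h and 0.03 at 12 h (heated mean 1.04 above 0 h, SD 0.20).

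T28F4.4 also overlaps dap-1, which met both conditions but is 1 of the 14 genes left out of the set. dap-1 stood at -1.87 at 0 h, 0.01 at 2 h, 0.09 at 4 h, 0.32 at 6 h, 0.50 at 8 h, 0.49 at 10 h and 0.74 at 12 h. Unlike T28F4.4 it was higher from 6 h on than at 4 h, so the 2 probes gave different courses. In both pairs, the spots of the 2 genes had the same place within 2 different print blocks of the array (blocks 8 and 6, and blocks 31 and 29). A part of spot position in these pairs was not tested.

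Most neighbours did not share the pattern. Of 48 measured flanking genes, 4 were members and so had an early change of at least 1 log2 unit by the choice. Of the other 44, outside the set, 1 (2.27%) had such a change. Over all named genes it was 162 of 5315 (3.05%), but 88 of these 162 are the members, which the 44 leave out. The share among named genes outside the set is therefore lower than 3.05%. The 2.27% does not show a shortfall among neighbours. Whether neighbours shared the pattern more often than other genes was not tested. The median early change of the 44 was 0.11, against 0.02 for all named genes. The 1 gene was C06B3.6, beside C06B3.7, chosen after its values were seen. C06B3.6 stood at -2.14 at 0 h, -0.71 at 2 h, -0.74 at 4 h, 0.83 at 6 h, 0.64 at 8 h, 0.82 at 10 h and 0.26 at 12 h. Its late mean was 1.26 above its early mean, and so it falls outside the set. F16G10.9 and F16G10.13 come from 1 clone, and the flanking genes F16G10.8 and F16G10.10 of F16G10.9 had early changes of 0.46 and 0.50. The flanking genes F16G10.14 and F16G10.11 of F16G10.13 had early changes of -0.41 and -0.62.

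**Figure D5:**
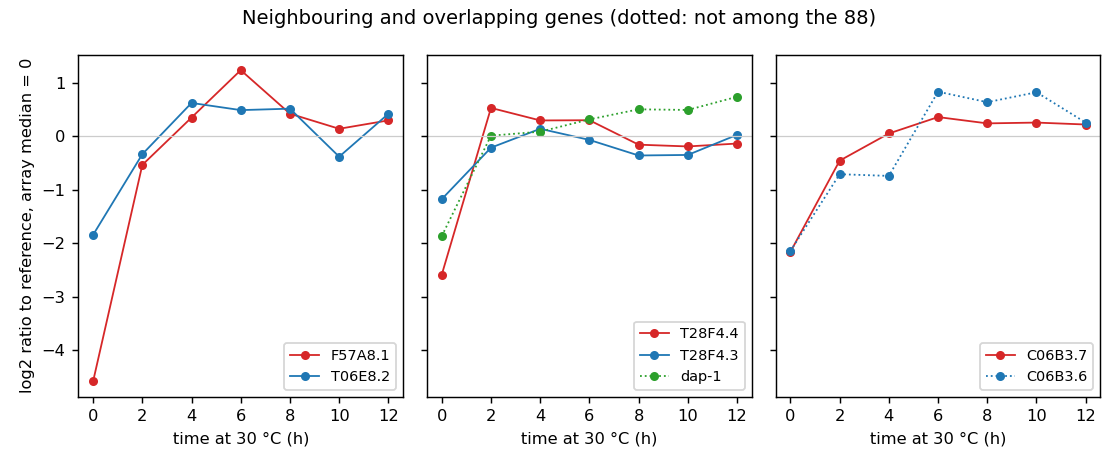
Log2 ratio to the reference (y axis, array median at 0) against hours at 30 °C (x axis) for 3 groups of neighbouring or overlapping genes, solid for genes of the set and dotted for dap-1 and C06B3.6. F57A8.1 and T06E8.2 are higher at 4 h than at 2 h; T28F4.4 is highest at 2 h while dap-1 is highest at 12 h; C06B3.6 is lower than C06B3.7 at 4 h and higher from 6 h.

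Several genes lay close to the limits of the choice. Y41E3.13 (early change 1) and D2062.5 (1.001) were just inside the early limit, and F29A7.3 (0.996) and T09F3.2 (0.992) just outside it. In all, 45 of the 88 had an early change under 1.2. Just inside the upper late limit were C46C2.4 (late change 0.67) and M01H9.3 (0.63), and just outside were Y71H2AR.2 and Y81B9A.3 (0.74 each). Just inside the lower late limit were Y53F4B.26 (-0.67) and Y73F8A.15 (-0.65), and just outside were F19B2.6 (-0.70) and R102.3 (-0.71). Membership also depended on single arrays. With the 2 h array left out, 131 genes met the conditions, 60 of them among the 88, and with the 4 h array left out 85 did, 49 of them among the 88.

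F16G10.9 is the only gene of the 88 on more than 1 probe, and its membership hangs on a single spot value. Of its 3 probes, 2 had all 7 values, with -0.61 and -0.68 at 0 h, 1.002 and 0.53 at 2 h, and 1.34 and 0.92 at 4 h. The other probe had 1 value, -0.98 at 4 h. Without it the late change is -0.92 in place of -0.56 and the gene falls outside the set. None of the 88 had a value at the limit of the file. The 88 genes came from 31 of the 32 print blocks, with at most 8 in a block. With medians set within print blocks, a setting chosen after seeing the data, 77 genes met the conditions, 66 of them among the 88. A part of the place on the array was not tested.

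Known functional groups could hardly be assessed in this set. The 13 gene lists of stress, growth, defence and metabolism held 113 genes measured on all arrays. Of these, 0 were among the 88, where 1.66% of all named genes were. The proteostasis list held only lonp-1, lonp-2, psme-4, rpn-13 and spg-20. Of the 5 measured proteostasis genes 0 passed as higher against baseline and 1 as lower (0.957% of all features passed as lower), and 0 had an early change of at least 1. Nucleolar genes (0 of 9), translation genes (0 of 9) and transporters and receptors (0 of 23) likewise had no gene with such a change. Among PALS and F-box genes it was 1 of 19. Over all named genes 3.05% had such an early change, and over all features 0.681% passed as higher. Lists this small can hold 0 at such shares, so these counts do not show that a group lacked the pattern. Of 24 detoxification genes 1 passed as lower, and of 4 metabolic and peroxisomal genes 2 did. The lists of chromatin (1 gene), DNA replication (6), RNA processing (6), secreted defence (5), cuticle (1) and motility (1) had 0 genes past the threshold in either direction. None of the 35 marker genes of intestine, muscle, hypodermis, neurons, germline and sperm was among the genes that the probes are named for. The tissue makeup of the samples could therefore not be checked. In whole animals, a change in RNA per cell and a change in the share of a tissue cannot be told apart.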

How the data were processed

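The authors deposited 1 log2 ratio per probe and array, for 19200 probes and 7 arrays, with between 16143 and 16972 values on an array. For scanner settings, background correction and normalization, details were not given in the sources used here, and the deposited values lie between limits near -5 and 5. Signal intensities were not used, so how far a spot stood above background is unknown. Precision is limited by how many arrays there are.

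Each array's median was subtracted and the probes of a gene were averaged, which left 7534 named genes, 5315 of them with a value on all 7 arrays. Names, RefSeq types and gene order came from RefSeq (assembly WBcel235). Neither labels nor files name a genome build for the probes, so no coordinates are printed, and no sequences were used. Unnamed probes entered the fits as features of their own, and p-values were adjusted over all features.

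Tests used limma 3.58.1 in R 4.3.3, with Benjamini-Hochberg adjustment and a threshold of 0.05. On simulated data the fit of the step within pairs recovered 0 of 100 true changes of 1 log2 unit and 86 of 100 of 3. The fit against baseline recovered 14 of 100 and 83 of 100. One fit compared the 6 heated arrays with the 0 h array. It takes the error from the spread of the heated arrays and leaves out any spread of the baseline. The other fit gave each pair of neighbouring heated times a level of its own and 1 shared step, and leaves out 0 h. With 1 array per time, p-values measure only the spread between these arrays, which may be technical.

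The members and gene lists were chosen with earlier results of these data known. Genes were named by a rule: the 12 with the highest mean of 6 and 8 h over 0 h, the nearest 2 on each side of each limit, the 3 highest and 3 lowest by 8 h minus 6 h, neighbouring members, members with a gene-class name and members on more than 1 probe. Members outside this rule are named as exceptions to the description, as chosen after their values were seen or, for VT23B5.1, for its RefSeq type. The part of the rule on similar proteins was not applied, as no protein sequences were used. Alternatives were other normalizations, other limits, other treatments of probes, a robust variance prior and each array left out.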

Additional observations from a re-analysis of the deposited data

How the results depend on the processing

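Scaling and the limits decided how many genes were in the set. Against 88 genes, there were 57 with arrays set to equal median absolute deviation, 171 with an early limit of 0.8 and 43 with one of 1.2, and between 81 and 131 with 1 array left out. Against baseline, 19 of the 88 and 91 of all features passed with limma as higher. This became 6 and 47 after quantile normalization, 5 and 44 with equal median absolute deviation, and between 6 and 24 (46 and 158 of all features) with 1 heated array left out. Of 28 named genes 0 changed direction under any of 12 alternatives, which the choice largely fixed. Every alternative kept the single 0 h array and most of the arrays that chose the genes. How often a gene passed is therefore no support for that gene and is not given. From 6 to 8 h, 3 genes were lower by at least 1 log2 unit after quantile normalization, against 0. The step within pairs had 0 calls under each alternative run. Centring within print blocks and averaging only complete probes were chosen after seeing the data. The cause of these changes was not tested. The arrays give no signal over background, and the single 0 h array cannot be left out, so its part in each change from baseline was not tested. No paired analysis was possible because no time has replicates to match with those of another time. The step within neighbouring times pairs arrays by time, not by sample.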
